A study of Mus musculus with 6 samples.

Results

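The pocket protein family was followed in RNA-seq counts of P21 mouse retinae. Its 3 genes, Rb1 (encoding RB), Rbl1 (encoding p107) and Rbl2 (encoding p130), were taken by symbol from a count table of 24062 genes, and all 3 were listed there and passed the low-count filter (a sum of at least 10 counts over the libraries), which left 16904 genes to test. The libraries were 3 Rb1/p107/Hells TKO retinae (Chx10-Cre, Rb1 lox/lox, p107-/-, Hells lox/lox) and 3 Rb1/p107 DKO retinae (Chx10-Cre, Rb1 lox/lox, p107-/-), from mice labelled C57BL/6 (C57BL/6N in the methods of the study) at postnatal day 21. Loss of Rb1 and p107 was therefore shared by both groups, and the genotypes differed in Hells, which encodes a chromatin remodeler of the SNF2 family. Counts on genes summed to 12083082, 12888233 and 10343907 in TKO retinae 1, 2 and 3 and to 12635061, 13455972 and 14203098 in DKO retinae 1, 2 and 3.

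RB, p107 and p130 bind E2F transcription factors through their pocket domain and hold E2F target genes silent until cyclin-dependent kinases phosphorylate them. RB is best known for restraining the activator E2Fs, whereas p107 and p130 bind mainly the repressor E2Fs and join the DREAM complex, which silences cell cycle genes in resting cells. In the mouse retina p107 can stand in for RB, and loss of both allows retinoblastoma to form.

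The model limits how these genes can be read. Chx10-Cre is a transgene active in retinal progenitors in a mosaic pattern, so each retina also held cells that kept Rb1 and, in the TKO group, Hells. The p107-/- allele was present in every cell. Counts were made per gene and not per exon, so transcripts of an inactivated allele count as well, and no library of a wild-type or Cre-negative retina was among the 6. The loss of Rb1 and p107 could not be checked against an intact control for this reason. In these bulk samples, fewer cells of a type and less RNA per cell cannot be told apart.

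The gene that separates the genotypes was read first. Hells had 60.8, 68.4 and 83.4 normalized counts (counts on the common library size that TMM scaling gives) in TKO retinae 1, 2 and 3, and 678, 523 and 395 in DKO retinae 1, 2 and 3. Each library followed its label, with Hells 7.5-fold lower in TKO (log2 fold change -2.91, standard error 0.225, adjusted p = 0.00359 from edgeR). Some cell cycle genes fell as far, such as Mybl1 (log2 fold change -2.93) and Top2a (-3.21). The level of Hells alone therefore cannot show its deletion, which was not tested.

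Since the family acts through E2F sites, the sequence before the start sites of its own genes is shown. RefSeq promoter windows of GRCm38.p6, from 250 bases before to 50 bases after the annotated start, matched 2 of the 3 genes, Rbl1 and Rbl2. The 100 bases directly upstream of the start are printed 5′ to 3′ on the strand of the gene, Rbl1 from chr2:157204535-157204634 on the minus strand and Rbl2 from chr8:91069957-91070056 on the plus strand. Capitals mark an E2F site letter match, that is TTTCCCGC, TTTCGCGC, TTTGCCGC or TTTGGCGC on either strand.
Rbl1: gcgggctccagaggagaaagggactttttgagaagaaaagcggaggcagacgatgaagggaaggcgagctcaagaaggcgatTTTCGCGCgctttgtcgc
Rbl2: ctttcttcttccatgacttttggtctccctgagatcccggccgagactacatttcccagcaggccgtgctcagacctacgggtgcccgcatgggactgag

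Rbl1 held TTTCGCGC from 18 to 11 bases before its start. Rbl2 held none of these letters, but it had TTTGAA, the core of the cell cycle homology region (CHR) that DREAM recognises, on the opposite strand from 201 to 196 bases before its start. Hells held TTTCCCGC from 62 to 55 bases before its start. Of 32851 promoter windows, 744 (2.26%) held an E2F match and 5878 (17.9%) held TTTGAA. A match describes letters and was not tested as a binding site.

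Rb1 and Rbl2 were each slightly higher in Rb1/p107/Hells TKO than in Rb1/p107 DKO retinae, and Rbl1 was counted at a low level in both. Rb1 had 814, 746 and 682 normalized counts in TKO retinae 1, 2 and 3 and 617, 583 and 572 in DKO retinae 1, 2 and 3. The lowest TKO retina therefore lay above the highest DKO retina, and the spread was wider in TKO (748 ± 66.0) than in DKO retinae (591 ± 23.5; SD, n = 3). Rb1 was 1.27-fold higher in TKO, with a 95% interval of 1.09 to 1.46 (log2 fold change 0.34, standard error 0.0912, adjusted p = 0.0388 from edgeR).

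Rbl2 was the steadiest of the 3 genes. It had 1226, 1205 and 1209 normalized counts in TKO retinae 1, 2 and 3 against 970.3, 958 and 1015 in DKO retinae 1, 2 and 3. All TKO values lay above all DKO values, and the group means were 1213 ± 11.1 and 981 ± 30.3 (SD, n = 3). Rbl2, the pocket protein that accumulates in resting cells, was 1.24-fold higher in TKO, with a 95% interval of 1.11 to 1.38 (log2 fold change 0.31, standard error 0.0691, adjusted p = 0.0218 from edgeR). The coefficient of variation of Rbl2 was 0.914% between TKO retinae, below the 3.06% that counting alone would give.

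Rbl1, deleted in the germline of both groups, still gave 24, 19 and 11 counts in TKO retinae 1, 2 and 3 and 16, 19 and 28 in DKO retinae 1, 2 and 3. After normalization these were 27.5, 20.0 and 13.5 against 15.1, 16.6 and 24.2. The groups overlapped fully, with the highest and the lowest value both in TKO retinae. The log2 fold change of 0.13 had a 95% interval from -0.71 to 0.96 (adjusted p = 0.839 from edgeR), so neither a rise nor a fall of that size was detectable at this depth. Counting alone would give a coefficient of variation of 23.6% in TKO and 21.8% in DKO retinae, against 34.5% and 26.2% measured.

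**Figure D1:**
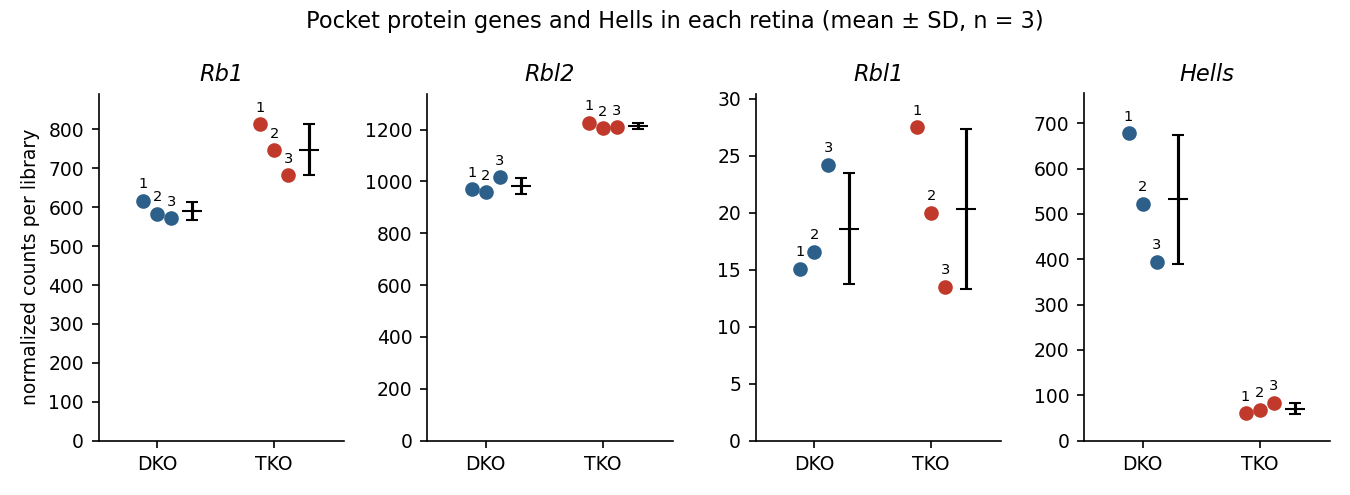
Normalized counts of Rb1, Rbl2, Rbl1 and Hells in each retina (numbered points, DKO in blue and TKO in red) with the mean and SD of 3 retinae in black. The TKO points of Rb1 (682 to 814) and Rbl2 (1205 to 1226) lie above all DKO points, those of Rbl1 overlap, and those of Hells (60.8 to 83.4) lie below all DKO points.

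The 3 genes were then set against all genes tested. Of the 3 genes, 2 passed an adjusted p of 0.05 in edgeR, both higher in TKO, where 16.6% of the genes tested passed, 7.35% higher and 9.20% lower. The same 2 genes had groups without overlap, as had 38.6% of the genes tested, 18.0% with TKO higher and 20.6% with TKO lower. Ranked by log2 fold change, Rb1 lay above 83.6% and Rbl2 above 81.6% of the genes tested. Neither met the criteria for differential expression that the study used (adjusted p of at most 0.05, a log2 change of at least 1 in either direction and at least 10 normalized counts on average), which 6.35% of the genes tested met, 1.97% higher and 4.38% lower.

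The order of the 3 genes was the same in all 6 retinae. Levels were set per kilobase of union exon length (6015 bases for Rb1, 5993 for Rbl1 and 7558 for Rbl2) and per 1e6 TMM-scaled counts. Rbl2 was highest, with a level of 12.7 ± 0.115 in TKO and 10.2 ± 0.321 in DKO retinae. Rb1 followed with a level of 9.83 ± 0.865 in TKO and 7.76 ± 0.308 in DKO retinae. Rbl1 was far below, at a level of 0.268 ± 0.0926 in TKO and 0.246 ± 0.0643 in DKO retinae (SD over 3 retinae).

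Within each genotype the ranges of neighbouring genes in this order did not overlap. The level of Rb1 ran from 8.97 to 10.7 in TKO retinae, where Rbl2 ran from 12.6 to 12.8, and from 7.52 to 8.11 in DKO retinae, where Rbl2 ran from 10.0 to 10.6. Of the summed level of the family per retina, Rbl2 took 53.6 to 57.9%, Rb1 40.8 to 44.8% and Rbl1 0.818 to 1.73%. The mean level of Rbl2 over the 6 retinae was 1.30 times that of Rb1, and that of Rb1 was 34.2 times that of Rbl1. The first ratio was 1.55 when the longest transcript was used as the length. By mean normalized count, Rbl2 lay above 81.5%, Rb1 above 69.6% and Rbl1 above 15.9% of the genes tested.

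**Figure D2:**
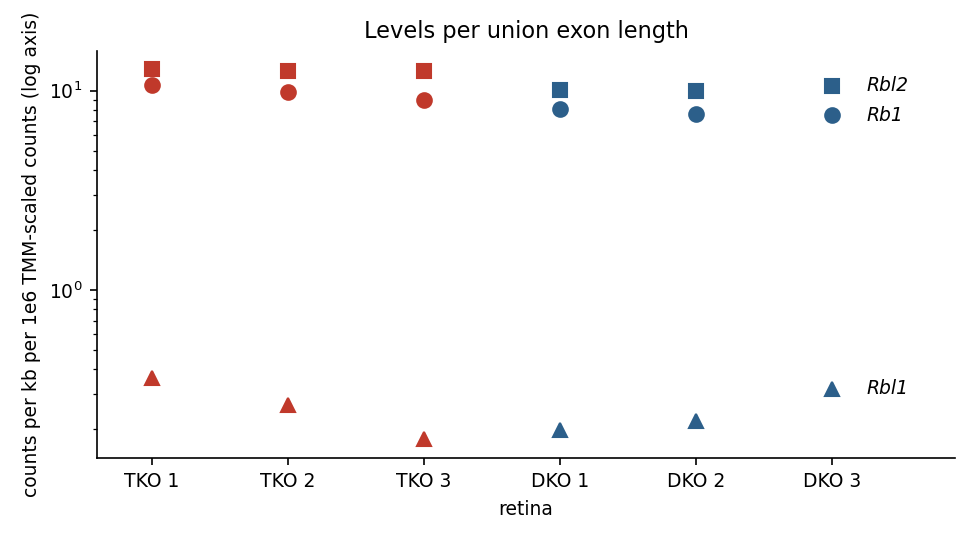
Levels of Rbl2 (squares), Rb1 (circles) and Rbl1 (triangles) in each retina, in counts per kilobase of union exon length per 1e6 TMM-scaled counts on a log axis, TKO in red and DKO in blue. Rbl2 (10.0 to 12.8) lies above Rb1 (7.52 to 10.7) in each retina, and Rbl1 stays between 0.178 and 0.363.

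Whether Rb1 changed relative to Rbl2 was asked with a ratio within each library, which does not depend on scaling. The log2 ratio of Rb1 to Rbl2 counts (pseudocount 0.5) was -0.59, -0.69 and -0.82 in TKO retinae 1, 2 and 3 and -0.65, -0.72 and -0.83 in DKO retinae 1, 2 and 3. The groups overlapped, and their difference of 0.029 had a 95% interval from -0.21 to 0.27. A two-sided exact permutation test gave p = 0.7, where the smallest p that 3 retinae against 3 allow is 0.1. A change of Rb1 relative to Rbl2 was not detectable within that interval.

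The values of these genes depended on the scaling of the libraries. The 10 most abundant genes took 6.56, 5.95 and 3.99% of counts in TKO retinae 1, 2 and 3 and 2.05, 2.09 and 3.12% in DKO retinae 1, 2 and 3. With total counts in place of TMM scaling, Rb1 was at 0.18 on the log2 scale (edgeR, adjusted p = 0.176) and Rbl2 at 0.15 (edgeR, adjusted p = 0.184), and the median of all genes tested moved from -0.011 to -0.168. Taken relative to the median of all genes, the log2 fold change was 0.35 for Rb1 and 0.32 for Rbl2 under both scalings, which follows from the scaling itself, since it moves all genes alike. Rbl1 was at -0.036 with total counts, but relative to that median it was at 0.14 with TMM scaling and 0.13 with total counts. With 1 retina left out, the log2 fold change of Rbl1 ran from -0.15 to 0.36, so its direction was not stable.

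Most fits with 1 retina left out lost the calls of Rb1 and Rbl2. Over all genes tested, higher calls fell from 1243 to 541 and 308 without TKO retinae 1 and 2. They fell to 312 and 214 without DKO retinae 1 and 2, and were 1617 and 1483 without TKO retina 3 and DKO retina 3. With 1 retina left out, the log2 fold change ran from 0.27 to 0.41 for Rb1 and from 0.29 to 0.33 for Rbl2. Rb1 passed in edgeR only without TKO retina 3 (adjusted p = 0.0216), and the other 5 fits gave at most 0.129. Rbl2 passed without TKO retina 3 (adjusted p = 0.0303) and without DKO retina 3 (adjusted p = 0.0255) in edgeR, and the other 4 fits gave at most 0.0915. All 6 fits kept the log2 fold change of Rb1 and of Rbl2 above 0.

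**Figure D3:**
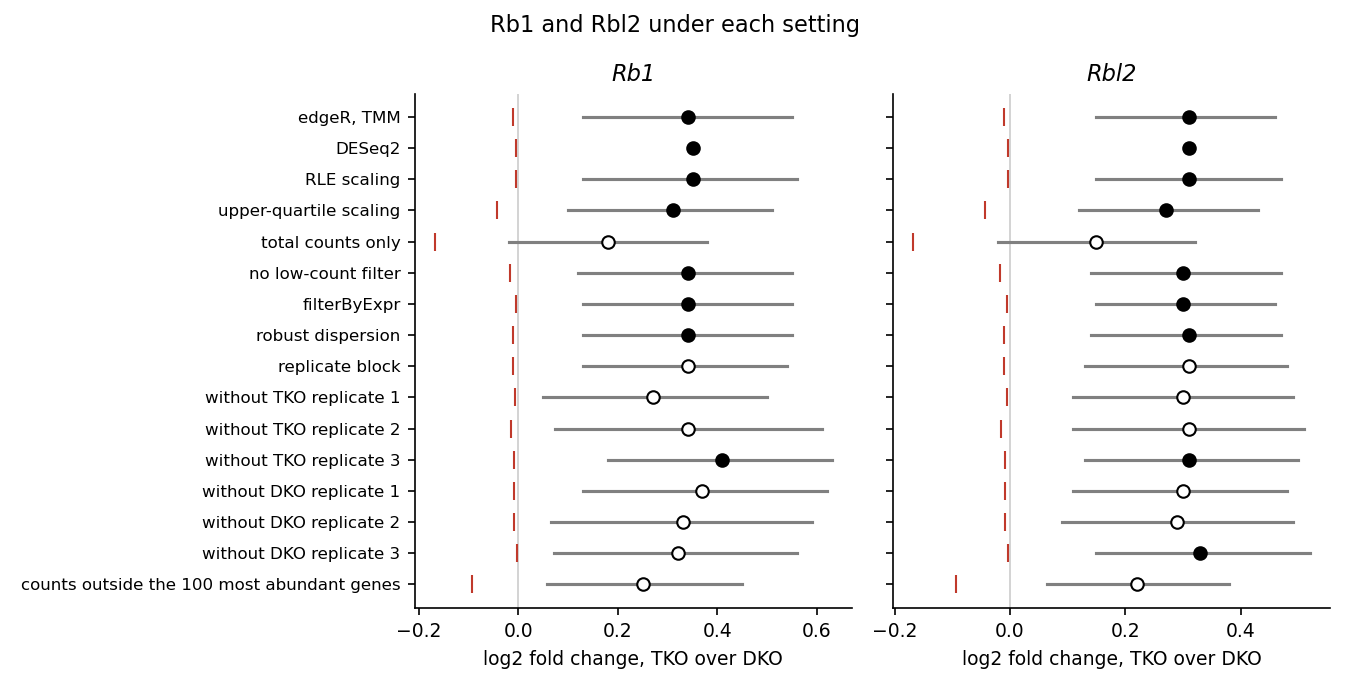
Log2 fold change (TKO over DKO) of Rb1 and Rbl2 in 16 fits, with 95% intervals as grey lines (none drawn for DESeq2) and filled points for an adjusted p of at most 0.05. Red ticks mark the median of all genes in the same fit. Each point lies above 0, lowest with total counts (0.18 and 0.15), where the tick lies at -0.168.

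Markers of retinal cell types differed between the genotypes as well. All 12 rod markers were higher in TKO (median log2 fold change 1.78), beside 7.35% of all genes tested, and their summed level was 60147, 51761 and 29766 CPM (counts per 1e6 TMM-scaled counts) in TKO retinae 1, 2 and 3 against 10489, 10196 and 19426 in DKO retinae 1, 2 and 3. No rod marker was at 0. Without TKO retina 2, DKO retina 1 or DKO retina 2, the number of rod markers that passed was 6, 5 and 4. Among TKO retinae, Rb1 and the rod marker level were both highest in retina 1, whereas among DKO retinae the rod marker level was highest in retina 3 (19426 CPM), where Rb1 was lowest (572 normalized counts). Rbl2 varied little among TKO retinae whose rod marker levels differed widely.

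Other marker lists were mixed. Of 10 microglia markers, 6 fell, beside 9.20% of all genes tested, and 0 rose (0 also at an unadjusted p under 0.05 and in DESeq2). Their summed level was 148, 192 and 266 CPM in TKO retinae 1, 2 and 3 and 394, 471 and 310.4 in DKO retinae 1, 2 and 3. Of 10 lens markers, 4 rose, with summed levels of 49.7, 278 and 41.8 CPM in TKO retinae 1, 2 and 3 and 8.71, 8.79 and 8.4 in DKO retinae 1, 2 and 3, Cryaa being the most abundant. Of 10 markers each, 3 of cones, 2 of bipolar cells and 1 of the pigment epithelium rose, beside 7.35% of all genes tested called higher. At an unadjusted p under 0.05, 9 cone, 4 bipolar and 2 pigment epithelium markers were higher (4, 3 and 1 in DESeq2). Müller glia markers went both ways, 3 up and 2 down. None of the 10 amacrine markers passed in edgeR, whereas 1 was higher and 2 were lower at an unadjusted p under 0.05 and also in DESeq2. The part of cell composition in the levels of Rb1 and Rbl2 was not tested.

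**Figure D4:**
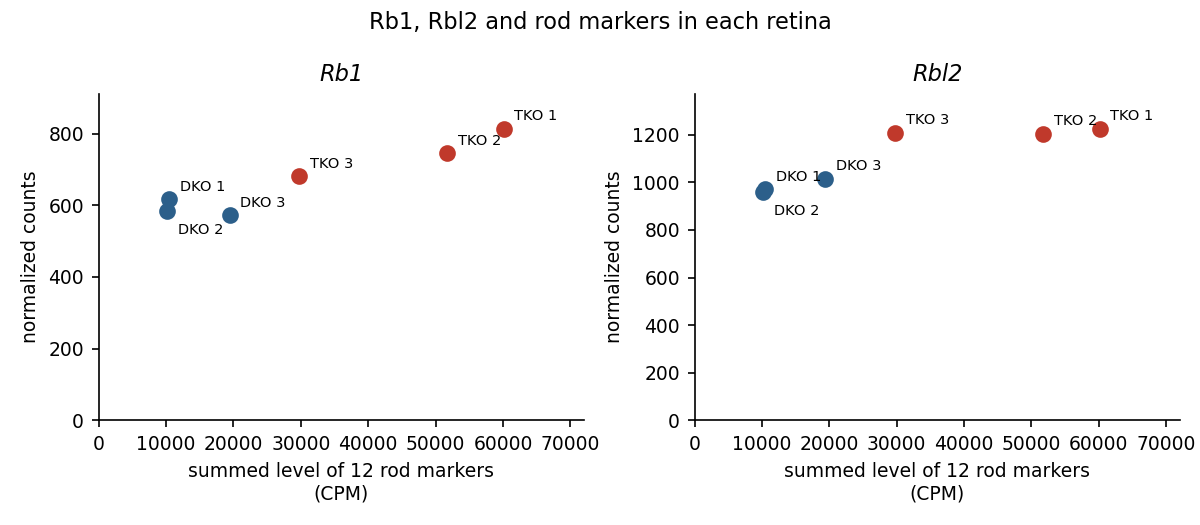
Normalized counts of Rb1 and Rbl2 against the summed level of 12 rod markers (CPM) in each labelled retina, TKO in red and DKO in blue. Rb1 ran from 572 to 814, with TKO 1 highest on both axes and DKO 3 lowest in Rb1 but with the highest rod marker level of the DKO retinae, and Rbl2 stayed between 1205 and 1226 across the TKO retinae.

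Genes of the pocket protein pathway were lower in TKO more often than higher. Of 91 genes on 8 lists of partners, regulators and targets, 89 were found and tested, of which 62 fell, 2 rose and 25 did not pass in edgeR, with a median log2 fold change of -1.30 against -0.011 for all genes tested. Of all genes tested, 9.20% were called lower and 7.35% higher, the background for the count of each list. Without the 2 lists of targets, 27 of 53 partners and regulators fell, 2 rose and 24 did not pass, with a median of -0.42. The 2 genes that rose, E2f4 and Smarca2, had log2 fold changes of 0.36 and 0.35, beside 0.34 for Rb1 and 0.31 for Rbl2. Without TKO retina 2, DKO retina 1 or DKO retina 2, 24, 35 and 30 genes of the lists were called lower, and none was called higher in these 3 fits or without TKO retina 1. Over all genes tested, lower calls fell from 1556 to 404, 499 and 433 in these 3 fits. The drops given for each list below stand beside that drop.

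Among the E2F and DP factors, the DNA-binding partners of pocket proteins, 6 of 10 fell and 1 rose (9.20% and 7.35% of all genes tested). The activators E2f1 and E2f2 fell (log2 fold changes -1.80 and -1.90), as did the atypical repressors E2f7 and E2f8 (both -1.84) and the dimer partners Tfdp1 (-0.55) and Tfdp2 (-0.82). With robust dispersion E2f7 and E2f8 did not pass (adjusted p = 0.0624 and 0.0657 from edgeR). E2f2 had 48.2, 65.3 and 90.8 normalized counts in TKO retinae 1, 2 and 3 and 328, 285 and 146 in DKO retinae 1, 2 and 3, and Tfdp1 had 952, 969 and 1063 against 1586, 1493 and 1296. In both genes the groups did not overlap, and DKO retina 3 was the lowest of its group.

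E2f4, the main partner of p130 and p107 in resting cells, had 672, 615 and 584 normalized counts in TKO retinae 1, 2 and 3 and 443, 502 and 510.3 in DKO retinae 1, 2 and 3. All TKO values lay above the DKO values, 1.29-fold on average (log2 fold change 0.36, adjusted p = 0.0389 from edgeR). With total counts its log2 fold change was 0.20 (adjusted p = 0.154 from edgeR), and without single retinae its adjusted p from edgeR ran from 0.0338 to 0.124. E2f5, the other repressor E2F bound by p130, had a log2 fold change of 0.28 (edgeR, adjusted p = 0.241). E2f3 had -0.076 and E2f6, an E2F that binds no pocket protein, had -0.20, neither of which passed. E2f6 had 571, 817 and 794 normalized counts in TKO retinae 1, 2 and 3 and 752, 660.1 and 1093 in DKO retinae 1, 2 and 3, with overlap between the groups. The 6 lower calls became 0 without TKO retina 2 or without DKO retina 2, and 3 without DKO retina 1.

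The MuvB core joins p107 or p130 in DREAM and joins B-MYB or FOXM1 when cells divide. Of 8 genes on that list 4 fell, against 9.20% of all genes tested, and 0 rose (0 also at an unadjusted p under 0.05 and in DESeq2). Mybl1 had 89.4, 156 and 268 normalized counts in TKO retinae 1, 2 and 3 against 1876, 1212 and 801 in DKO retinae 1, 2 and 3, the largest fall of the list (log2 fold change -2.93, adjusted p = 0.00700 from edgeR). Mybl2, which encodes B-MYB, had 42.4, 48.4 and 81.0 against 292, 192 and 142 normalized counts (log2 fold change -1.87), and Foxm1 fell by 2.48 on the log2 scale. Of the core itself Lin9 fell (-0.78), whereas the histone-binding subunit Rbbp4 had 2804, 2936 and 2845 against 3401, 3411 and 3078 normalized counts (-0.20, adjusted p = 0.114 from edgeR, but -0.36 and adjusted p = 0.0291 from edgeR with total counts). Log2 fold changes ran from -2.93 to -1.87 for the 3 MYB and FOXM1 genes and from -0.78 to 0.20 for the 5 core genes, a difference that was not tested. The 4 calls became 1 without TKO retina 2 and 2 without DKO retina 1 or DKO retina 2.

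Cyclins and cyclin-dependent kinases release E2F by phosphorylating pocket proteins, and 7 of 10 such genes fell, against 9.20% of all genes tested, while 0 rose (0 also at an unadjusted p under 0.05 and in DESeq2). Cdk4, the partner of D cyclins, had 646, 727 and 886 normalized counts in TKO retinae 1, 2 and 3 against 1817, 1671 and 1301 in DKO retinae 1, 2 and 3 (log2 fold change -1.08). Cdk1, the mitotic kinase, had 42.4, 90.5 and 157 against 739.7, 717 and 391 (log2 fold change -2.68). Ccnd2, Cdk2, Ccne1, Ccne2 and Ccna2 fell by 1.41, 1.75, 1.17, 0.90 and 1.32 on the log2 scale, of which Ccne2 did not pass with robust dispersion (adjusted p = 0.0648 from edgeR). Ccnd3, a D cyclin abundant in differentiated cells, had 725, 867 and 696 against 650.3, 618 and 990.3 normalized counts, with the groups overlapping (log2 fold change 0.019, of changing sign between settings, adjusted p = 0.953 from edgeR). The 7 calls became 3 without TKO retina 2 or DKO retina 2 and 4 without DKO retina 1.

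CDK inhibitors, which keep pocket proteins active, were mostly lower as well, with 5 of 7 lower, against 9.20% of all genes tested, and 0 higher (0 also at an unadjusted p under 0.05 and in DESeq2). Cdkn2a, which encodes p16INK4a and p19ARF, had 1, 1 and 2 counts in TKO retinae 1, 2 and 3 and 26, 28 and 21 in DKO retinae 1, 2 and 3. Cdkn2c, which encodes p18INK4c, had 97, 140 and 134 against 479, 450 and 307 counts before normalization (log2 fold change -1.39), and Cdkn1a, which encodes p21, had 157, 262 and 358 against 786, 749 and 579 normalized counts (-1.45). Cdkn1c and Cdkn2d fell by 0.67 and 0.49 on the log2 scale. Cdkn1b, which encodes p27 and was the most abundant of the list by normalized count, had 798, 1019.9 and 787 against 811, 919 and 858 with overlapping groups (log2 fold change 0.0096, of changing sign between settings, adjusted p = 0.962 from edgeR). The list median of -1.01 was the value of Cdkn2b, which did not pass (adjusted p = 0.196 from edgeR). With Cdkn2a set at a limit of 3 counts per TKO library (log2 fold change -2.71) it stayed the lowest of the list, so the median could not move. The 5 calls became 3 without TKO retina 1 and 2 without TKO retina 2, DKO retina 1 or DKO retina 2, and the median was -0.63 without TKO retina 1 and -1.51 without TKO retina 3.

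Among phosphatases that restore active pocket proteins, none of 5 catalytic or regulatory subunits passed in edgeR or DESeq2, and 1 was higher and 1 lower at an unadjusted p under 0.05. Ppp1cc, the most abundant, had 5789, 5501 and 4854 normalized counts in TKO retinae 1, 2 and 3 and 4477, 4678 and 4431 in DKO retinae 1, 2 and 3 (log2 fold change 0.25, adjusted p = 0.107 from edgeR). Ppp1ca had 2171, 2308 and 2198 against 2478, 2760.4 and 2501 (-0.21, adjusted p = 0.100 from edgeR, but -0.37 and adjusted p = 0.0243 from edgeR with total counts). Ppp2ca, the catalytic subunit that acts on p107 and p130, had 4515, 4484 and 4317 against 4741, 5176 and 4537 (-0.12, adjusted p = 0.375 from edgeR). Groups did not overlap for these 3 genes, as for 38.6% of all genes tested, and the differences missed the threshold. In this list 1 phosphatase gene was called higher without TKO retina 3.

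Co-repressors and chromatin partners that pocket proteins bring to promoters included 5 of 13 lower and 1 higher, against 9.20% and 7.35% of all genes tested, with a median of -0.11. Of the 15 genes listed, 2 (Kmt5b and Kmt5c) were not matched by symbol. Smarca2, an ATPase of the SWI/SNF complex, had 4010.2, 3602 and 3721 normalized counts in TKO retinae 1, 2 and 3 and 2996, 2895 and 3031 in DKO retinae 1, 2 and 3 (log2 fold change 0.35, adjusted p = 0.0234 from edgeR, but 0.19 and adjusted p = 0.138 from edgeR with total counts). Its sister ATPase gene Smarca4 had 4033, 4065 and 4152 against 4291, 3983 and 4372, within the spread of the DKO retinae. The histone deacetylases Hdac1 and Hdac2 fell by 0.33 and 0.48, and Rbbp8, which encodes the RB-binding protein CtIP, fell by 1.15 on the log2 scale. Rbbp7, a histone-binding protein, had 1449.5, 1679.8 and 1664 against 2137, 2258 and 2035 normalized counts (-0.42), and Dnmt1, the maintenance DNA methyltransferase, had 1667, 1742 and 2292 against 3607, 3076 and 2699.9 (-0.72). No gene of the list passed in any of the 4 fits without TKO retina 1, TKO retina 2, DKO retina 1 or DKO retina 2.

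**Figure D5:**
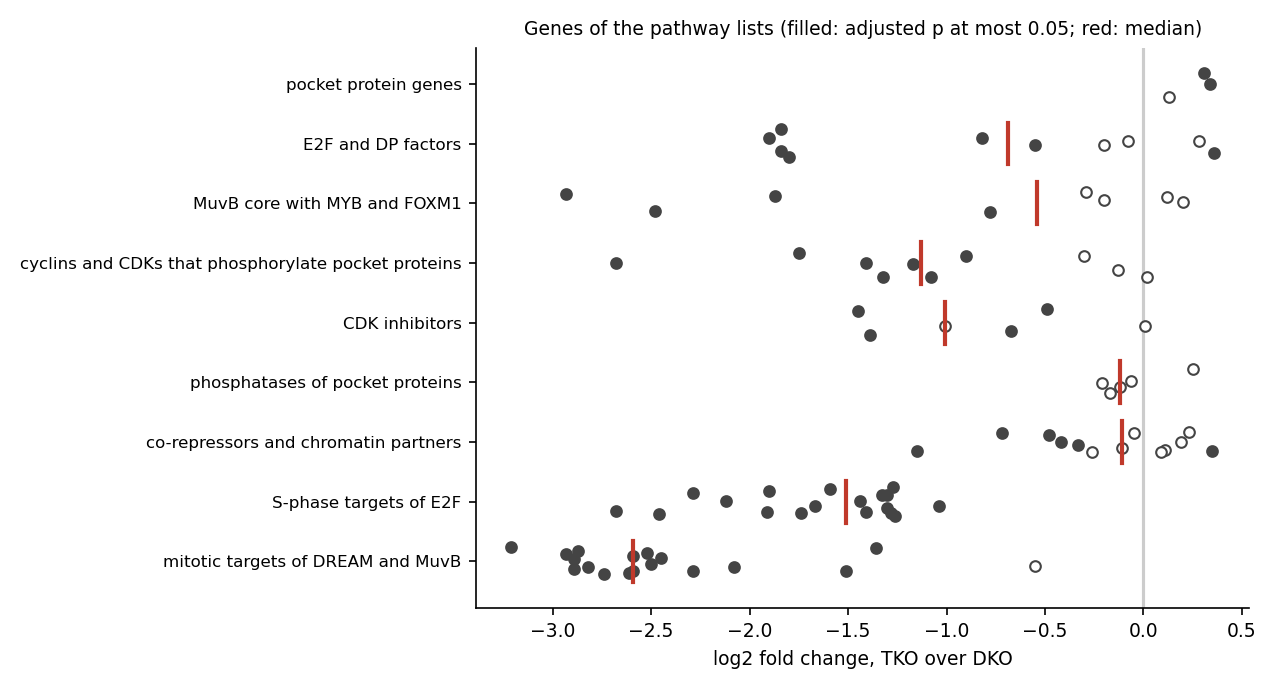
Log2 fold change (TKO over DKO) of the pocket protein genes and of the tested genes on 8 lists, filled where the adjusted p was at most 0.05, with red bars at the list medians. Cdkn2a, with 1 to 2 counts in TKO libraries, is not drawn. The target lists sit farthest to the left (medians -1.51 and -2.59), the phosphatases and co-repressors near 0 (-0.12 and -0.11), and Rb1 and Rbl2 above 0.

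Targets of the pathway were lower throughout. All 18 S-phase targets of E2F fell and 17 of 18 mitotic targets of DREAM and MuvB fell in edgeR, against 9.20% of all genes tested, with medians of -1.51 and -2.59, and 0 rose (0 also at an unadjusted p under 0.05 and in DESeq2). Rrm1, a subunit of ribonucleotide reductase, had 705, 768 and 828 normalized counts in TKO retinae 1, 2 and 3 against 2266, 1955 and 1431 in DKO retinae 1, 2 and 3 (log2 fold change -1.30). The thymidine kinase gene Tk1 had 21.8, 37.9 and 76.1 against 339.7, 313 and 211 (-2.68). In both genes the highest TKO value stayed well below the lowest DKO value. Pcna, the sliding clamp of replication, had 944, 1236 and 1512 against 3424, 3245 and 2224 (-1.27).

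Of the mitotic targets, Ccnb2, a mitotic cyclin gene, had 28.7, 44.2 and 50.3 normalized counts in TKO retinae 1, 2 and 3 against 278, 281 and 139.9 in DKO retinae 1, 2 and 3 (log2 fold change -2.50). The spindle midzone gene Prc1 had 76.8, 97.9 and 209.9 against 1049, 1060.2 and 591 (-2.82). Top2a, which encodes topoisomerase II, had 132, 230.5 and 534 against 3944, 2684 and 1646 (-3.21). TKO retina 3 and DKO retina 3 were the closest to the other group in each of these genes. Mki67, the proliferation marker, had 166, 327 and 784 against 3514, 2157 and 1644 (-2.52), and did not pass with robust dispersion (adjusted p = 0.0698 from edgeR). Bub1b of the spindle checkpoint was the exception, at -0.55 (adjusted p = 0.107 from edgeR). The S-phase calls became 7 without TKO retina 2, 10 without DKO retina 1 and 9 without DKO retina 2, and the mitotic calls became 11 without TKO retina 2.

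The promoter windows of the lists were searched for the same letters. A listed gene was counted if any of its windows held them, whereas the background counts each window singly. The shares of the lists and of all windows are therefore in unlike units. An E2F match was held by 8 of 16 matched S-phase targets and by 4 of 8 E2F and DP genes, beside 2.26% of all windows. None of 15 matched mitotic targets held one, and 10 of the 15 (66.7%) held TTTGAA, beside 17.9% of all windows. In the other lists an E2F match was held by 3 of 10 co-repressor genes, 2 of 6 cyclin and CDK genes, 1 of 6 CDK inhibitor genes, 1 of 5 MuvB genes and 0 of 3 phosphatase genes. TTTGAA was held by 3 of 8 E2F and DP genes, 2 of 5 MuvB genes, 2 of 10 co-repressor genes, 2 of 16 S-phase targets, 1 of 6 cyclin and CDK genes, 1 of 6 CDK inhibitor genes and 0 of 3 phosphatase genes. The Rbl1 window held an E2F match, but Rbl1 was deleted in both groups and had 11 to 28 counts per library. Its overlapping groups therefore cannot show whether it responded. The Rbl2 window held TTTGAA, as did 17.9% of all windows, and its counts were higher in TKO.

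Genes that overlap or flank the 3 genes were read next, in GENCODE coordinates of GRCm38. Rb1 spans chr14:73183673-73325822 on the minus strand, with 27 exons in its longest transcript. Lpar6, a lysophosphatidic acid receptor gene, lies at chr14:73237895-73243294 within intron 17 of Rb1 on the opposite strand, and Rcbtb2 overlaps the 3′ end of Rb1 from chr14:73123037-73207843, also on the opposite strand. Both fell, Lpar6 from 64.9, 53.4 and 64.8 normalized counts in DKO retinae 1, 2 and 3 to 35.5, 32.6 and 35.6 in TKO retinae 1, 2 and 3 (-0.82 on the log2 scale, edgeR, adjusted p = 0.0356), and Rcbtb2 from 695, 615 and 485 to 284, 341 and 403 (-0.80, adjusted p = 0.0164 from edgeR). The strand setting of the counting was not stated, so reads on shared exons cannot be assigned with certainty. With 1 retina left out, the adjusted p from edgeR ran from 0.0509 to 0.117 for Lpar6, so it passed in none of these 6 fits, and Rcbtb2 passed in 3 of 6.

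Rbl1 spans chr2:157145893-157204534 on the minus strand and overlaps no gene of the table. Of its 6 nearest genes, Soga1 fell by 0.78 on the log2 scale (edgeR, adjusted p = 0.0158) and the other 5 did not pass. Rbl2 spans chr8:91070057-91123844 on the plus strand and overlaps Aktip on the opposite strand, which had a log2 value of 0.31 like Rbl2 (edgeR, adjusted p = 0.0698). Of the 7 genes read around Rbl2, only Aktip overlaps it, and the others lie from 15541 (Chd9) to 2025895 bases (Sall1) away. None of the 7 passed in edgeR or DESeq2, with 1 higher and 1 lower at an unadjusted p under 0.05. Of 19 tested neighbours of the 3 genes, 3 fell, beside 9.20% of all genes tested, and 0 rose (1 at an unadjusted p under 0.05 and 0 in DESeq2).

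Finally, the genes whose pattern over the 6 retinae was most like that of each pocket protein gene were listed, by Pearson's r of log2(CPM + 0.5) among 14975 genes. Rb1 was closest to Las1l (r = 0.9975), Ccdc96 (0.9974) and Cdk8 (0.9965), and 401 genes reached 0.95. Rbl2 was closest to Cds2 (r = 0.9967), 5730405O15Rik (0.9964) and Crtc3 (0.9961), and 409 genes reached 0.95. Rbl1 was closest to Pih1d2 (r = 0.9938), Nup35 (0.9714) and Qsox1 (0.9712), and 14 genes reached 0.95. Between members, r was 0.888 for Rb1 and Rbl2, 0.369 for Rb1 and Rbl1 and 0.257 for Rbl1 and Rbl2. These 6 points share 2 genotypes and the scaling of the libraries.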

How the data were processed

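RNA was measured in 6 retinae, 3 per genotype, and grouped by the sample labels. The deposited values are raw counts per gene symbol made by the authors from stranded mRNA libraries. The methods of the study name STAR and HTSeq on GRCm38, whereas its submitters' processing notes list TopHat2, featureCounts and DESeq2, and the strand setting is not given in the sources used here. The labels give each library its own number without saying what it stands for, nor whether the 3 retinae of a group came from separate animals, so p-values measure the spread between these samples.

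Genes with a sum of at least 10 counts were tested with edgeR 4.0.16 in R 4.3.3 (TMM, quasi-likelihood F test, Benjamini-Hochberg adjustment over 16904 genes, no covariates). Standard errors come from the log2 fold change and F. Intervals are 95%. DESeq2 1.42.0 was an alternative, with other scalings, filters, robust dispersion, a replicate block and each retina left out. The test was checked on simulated data with log2 changes of 1 or 2 in the changed genes. Recovery of changes as small as those of Rb1 and Rbl2 was not checked. Replicates were no repeats of 1 library, with 8.61 to 25.3 times the variance that counting gives. Of 24062 symbols, 22758 were found in GENCODE M21. A scaling to counts outside the 100 most abundant genes and the promoter letters were chosen after seeing the data.

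The members, lists and tests were chosen with earlier results of these data known. Values per retina are given for Rb1, Rbl1, Rbl2 and Hells and, of each pathway list, for the 2 genes with the smallest p and the 2 with the largest mean count. Neighbouring genes, the 3 genes most like each member and the most abundant gene of marker lists could also be named, of which some are not reported here. Other genes of the lists are named without values per retina, except E2f4, singled out after its values were seen. The lists were written by hand.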

Additional observations from a re-analysis of the deposited data

How the results depend on the processing

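Rb1 and Rbl2 kept a log2 fold change above 0 in all 15 alternative fits, and their adjusted p from edgeR or DESeq2 passed 0.05 in 7 and 8 of them. With total counts only, Rb1 was at 0.18 and Rbl2 at 0.15, and scaled to counts outside the 100 most abundant genes (added after seeing the data, median of all genes -0.094) they were at 0.25 and 0.22, without passing (adjusted p = 0.076 and 0.0587 from edgeR). With 1 retina left out, Rb1 ran from 0.27 to 0.41, Rbl2 from 0.29 to 0.33 and Hells from -3.08 to -2.69, and Hells passed in every fit. Rbl1 ran from -0.15 to 0.36 in those fits, below 0 without TKO retina 1 (-0.15) and DKO retina 1 (-0.0016), and was -0.036 with total counts. The cause of these changes was not tested.

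Genes called higher and lower numbered 1243 and 1556. They numbered 778 and 2610 with total counts, 216 and 345 at an adjusted p of at most 0.01, and 333 and 741 with the 3 criteria of the study. With 1 retina left out they ran from 214 to 1617 and from 404 to 1973. The lists had 62 lower calls, 24 to 62 with 1 retina left out, and 2 higher calls, 0 to 3 with 1 retina left out, 1 with upper-quartile scaling, 0 with total counts and 0 with counts outside the 100 most abundant genes.

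Same-numbered retinae did not deviate together (correlations 0.0601, -0.0495 and -0.206 across genes), so they share a number only. With the replicate block 24 genes were called higher and 82 lower, and 0 and 0 genes of the lists, while Rb1 stayed at 0.34 (adjusted p = 0.0714 from edgeR) and Rbl2 at 0.31 (0.0682). The block removed the call of 40 of 41 named genes that had passed, Hells being the exception. Robust dispersion removed 4 of the 41, E2f7, E2f8, Ccne2 and Mki67 (adjusted p = 0.0624, 0.0657, 0.0648 and 0.0698 from edgeR).

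The difference between TKO and DKO in the log2 ratio of Rb1 to Rbl2, 0.029 over all retinae, ran from -0.027 to 0.091 with 1 retina left out, below 0 without TKO retina 1 (-0.027) and DKO retina 3 (-0.018). The ratio of the levels of Rbl2 and Rb1 was 1.55 with the longest transcript, and with 1 retina left out it ran from 1.28 to 1.33. Of genes that did not pass, E2f3 was at 0.016 without TKO retina 3, and E2f6 ran from -0.34 to 0.043 with 1 retina left out, above 0 without DKO retina 3. Cdkn1b was at 0.079 without TKO retina 3, -0.025 with upper-quartile scaling, -0.15 with total counts, -0.12 without TKO retina 2, -0.033 without DKO retina 1 and -0.075 with counts outside the 100 most abundant genes. Ccnd3 was at -0.013 with upper-quartile scaling, -0.14 with total counts, -0.084 without TKO retina 2, -0.076 without DKO retina 1, -0.11 without DKO retina 2, 0.27 without DKO retina 3 and -0.063 with counts outside the 100 most abundant genes. Of the 3 pocket protein genes, Rbl1 had the fewest counts, 11 to 28 per library.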
